A study of Mus musculus with 12 samples.

Results

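Transcripts of Wnt ligands and of secreted Wnt antagonists were read in mouse lung and in lung adenocarcinomas driven by cyclin E. The set held 14 probe sets of 8 genes, out of 45101 probe sets on the array, and was defined by a list of probe set numbers: Wnt5a (1436791_AT and 1448818_AT), Wnt7b (1420891_AT and 1420892_AT) and Wnt11 (1450772_AT) as ligands, and Wif1 (1425425_A_AT), Sfrp1 (1416594_AT, 1448395_AT and 1460187_AT), Sfrp2 (1448201_AT), Frzb (1416658_AT and 1448424_AT) and Dkk3 (1417312_AT and 1448669_AT) as secreted antagonists. The gene names came with that list, and no file used here pairs the numbers with genes. Non-transgenic FVB lung, histologically normal lung next to the tumors of transgenic FVB mice, and lung adenocarcinomas of transgenic FVB mice were each measured in 4 samples, for 12 arrays in all. FVB is an inbred strain. The transgenic mice carried wild-type human cyclin E, a cell cycle regulator, under the human surfactant protein C promoter, which is active in alveolar type II cells, and the non-transgenic mice carried no transgene. All mice were male and 7 to 11 months old. Neighbouring tissue codes in the labels point to 1 transgenic mouse for each number shared by a tumor and an adjacent lung, although the methods speak of 12 independent samples.

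Wnt proteins are lipid-modified secreted ligands that bind Frizzled receptors with their co-receptors. In the canonical branch, receptor binding stabilizes β-catenin, which then works with TCF/LEF factors on target genes, and other branches act on cell shape and movement without β-catenin. Secreted antagonists act outside the cell. Wif1 and the secreted frizzled-related proteins Sfrp1, Sfrp2 and Frzb bind the ligands themselves, and most Dickkopf proteins instead block the co-receptors Lrp5 and Lrp6. In the lung, Wnt signalling takes part in branching and in alveolar repair.

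The upstream sequences of Wnt11 and Wif1 are shown because these were the genes for which all 4 tumors lay below all 8 lungs. They are the bases just before the annotated gene start in RefSeq (GRCm38.p6), 5′ to 3′. RefSeq windows were at hand for 4 of the 8 genes (Wnt11, Wif1, Sfrp2 and Frzb), but that of Sfrp2 held 0 bases before the gene start. Capitals mark CTTTGAT or CTTTGAA on either strand, the core that TCF/LEF factors are known to bind.
Wnt11, chr7:98834862-98835083, plus strand: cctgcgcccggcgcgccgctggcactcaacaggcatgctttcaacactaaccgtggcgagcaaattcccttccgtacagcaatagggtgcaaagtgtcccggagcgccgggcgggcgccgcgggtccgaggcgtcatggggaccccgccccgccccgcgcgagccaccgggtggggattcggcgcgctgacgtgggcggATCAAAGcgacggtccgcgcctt
Wif1, chr10:121033754-121034003, plus strand: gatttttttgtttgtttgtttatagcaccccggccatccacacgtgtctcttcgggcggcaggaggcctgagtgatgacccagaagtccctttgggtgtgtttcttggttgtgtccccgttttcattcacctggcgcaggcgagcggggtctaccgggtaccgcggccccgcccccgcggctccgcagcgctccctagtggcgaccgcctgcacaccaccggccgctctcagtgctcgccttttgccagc
The 222 bases before Wnt11 hold 1 match, ATCAAAG, which ends 16 bases before the gene start, and the 250 bases before Wif1 hold 0. The 250 bases before Frzb, not shown, also hold 0. Of 32851 RefSeq windows of 250 bases over the mouse genome, 7.48% hold at least 1 match. Those windows were not cut at the gene start, and some lie within a gene, such as that of Sfrp2. A match says only that these letters are present, and no binding or methylation was measured.

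Each value below is a deposited log2 signal of 1 probe set on 1 array, so a difference of 1 is a doubling of the signal, and the comparisons are between samples. The table had no detection calls. Testing was limited to probe sets that exceeded the table median (4.18) on 4 or more arrays, which kept 23538 of the 45037 probe sets other than controls, and 8 of the 14 members. The 6 members not tested were 1436791_AT (Wnt5a), 1420891_AT (Wnt7b), 1460187_AT (Sfrp1), 1448201_AT (Sfrp2) and both probe sets of Frzb, and their values are given as descriptions. Tests were those of limma with all 3 groups in 1 fit and Benjamini-Hochberg adjustment over all 23538. Replicates are separate tissue samples, and 4 per group limits the precision. The median signal per array was 4.10 to 4.38. Over the probe sets tested, tumor 2 stood apart, at a mean Euclidean distance of 154 from the other tumors against 96.7 to 103 for those. It was nearer to the 8 lungs (112) than the other tumors were (169 to 177). Adjacent normal lung 3 also lay farther from its own group (105) than its neighbours (66.2 to 69.8). Tumor 2 also had the largest mean excess of 3′ over 5′ signal in the Gapdh and β-actin controls, 0.61 against 0.30 to 0.57 in the other arrays. For β-actin alone, adjacent normal lung 3 (0.92), tumor 3 (0.95) and tumor 4 (0.97) exceeded tumor 2 (0.90). For Gapdh alone, tumor 2 (0.329) was close to adjacent normal lungs 1 (0.327) and 4 (0.322). Because no table used here pairs other probe sets with genes, the cyclin E transcript, cell type markers of lung and tumor, receptors and Wnt target genes were not analysed here.

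**Figure D1:**
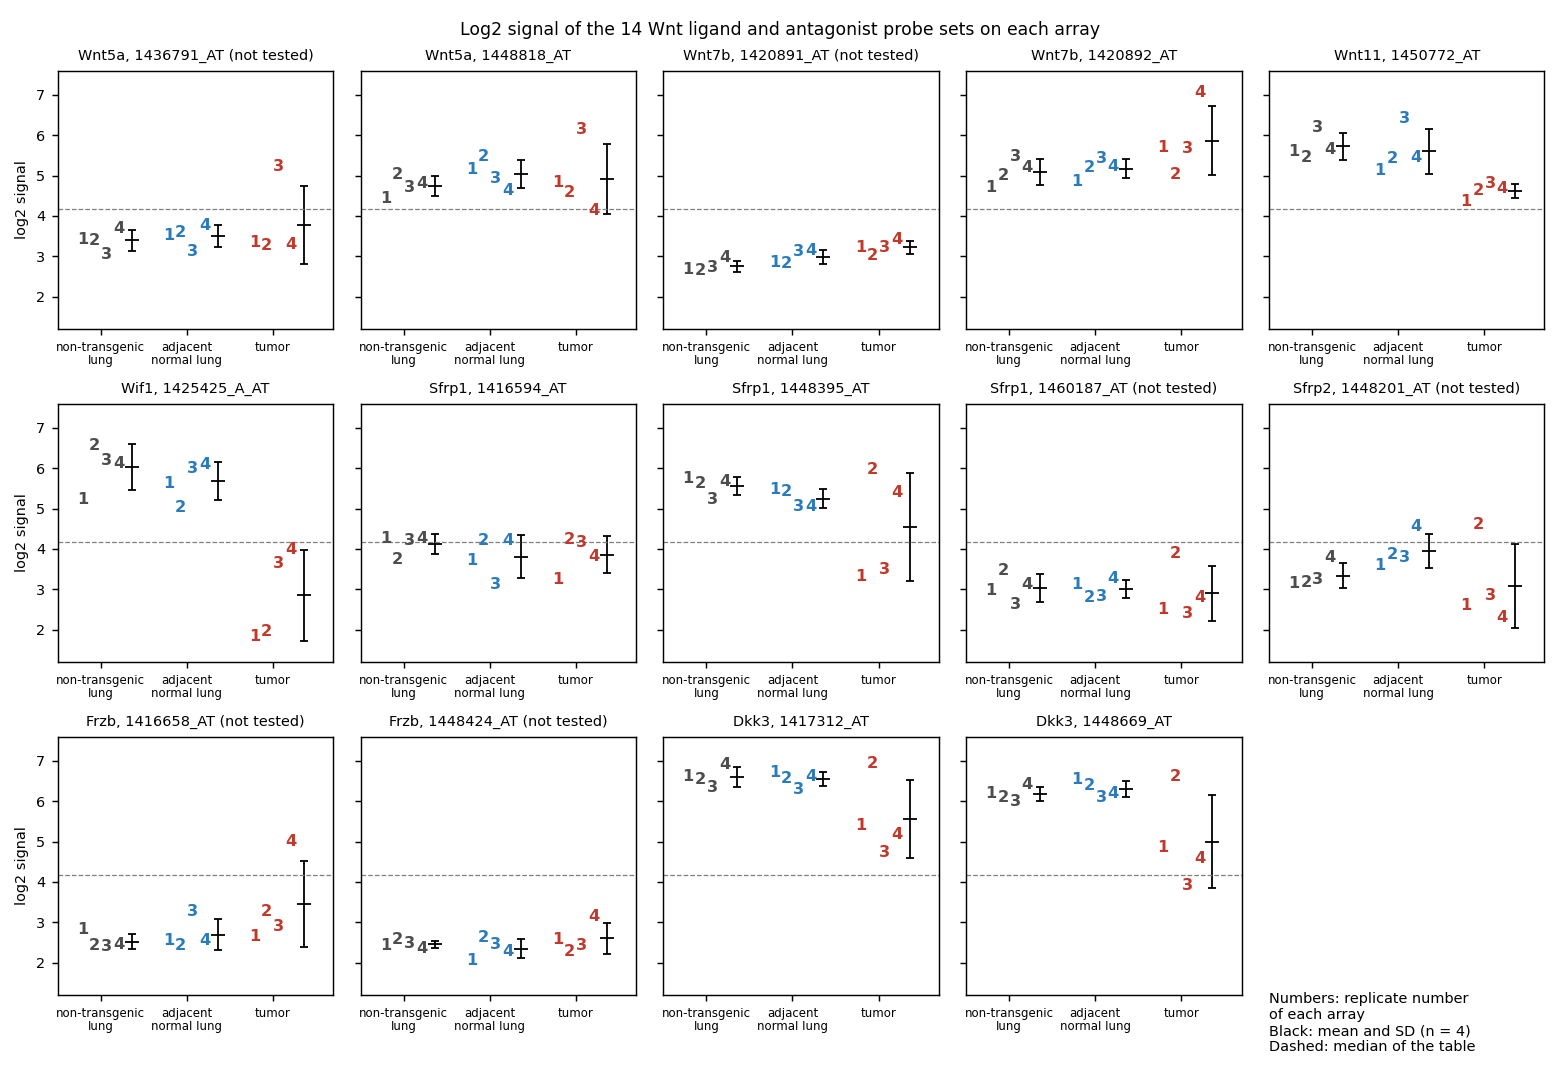
Log2 signal (y axis) of each of the 14 probe sets in the 12 arrays, in 1 panel per probe set, where each number is the replicate number of an array, black marks give the group mean and SD (n = 4) and the dashed line is the table median of 4.18. In the Wif1 panel the 4 tumors sit between 1.82 and 3.99 and the 8 lungs between 5.03 and 6.56.

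Wif1 showed the largest difference of any member in the tumors. Wnt11 was lower as well, and Dkk3 was lower in 3 of the 4 tumors. Against adjacent normal lung, 3 of the 8 members tested fell and 0 rose: 1425425_A_AT (Wif1), 1450772_AT (Wnt11) and 1448669_AT (Dkk3). Over all probe sets tested, 15.6% fell and 13.2% rose in that comparison. Those shares stand for 3663 and 3102 probe sets, and with each array centred on its median 3080 fell and 4834 rose, with Wif1 and Wnt11 still called lower and Dkk3 not called. Against non-transgenic lung, 3 of 8 fell and 0 rose, with 1417312_AT in place of 1448669_AT for Dkk3, beside 16.9% that fell and 15.6% that rose over all probe sets tested. Both comparisons use the same 4 tumor arrays, so they are not independent of each other. The filter can be passed through lungs alone, as by Wif1, which exceeded the median in all 8 lungs and in 0 tumors. A probe set high only in tumors must exceed it in all 4, so falls were more readily tested than rises. The shares over all probe sets went through the same filter. All 4 tumors lay below all 8 lungs in 2 of the 8 members tested (Wif1 and Wnt11) and above all 8 in 0 of 8, beside 10.6% below and 6.98% above over all probe sets tested. Of the 6 members not tested, 0 had all 4 tumors on one side of all 8 lungs.

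Wif1 (WNT inhibitory factor 1) is a secreted protein that binds Wnt ligands through its WIF domain. In the non-transgenic lungs its log2 signal was 5.23, 6.56, 6.19 and 6.13 in replicates 1 to 4, a mean of 6.03 ± 0.56 (SD, n = 4). In adjacent normal lung it was 5.62, 5.03, 5.98 and 6.09, a mean of 5.68 ± 0.48 (SD, n = 4). In the tumors it was 1.82, 1.95, 3.63 and 3.99, a mean of 2.85 ± 1.12 (SD, n = 4). Tumors 1 and 2 were the lowest, tumors 3 and 4 lay higher, and the highest tumor was still below the lowest lung. Thus Wif1 was 7.13-fold lower in tumor than in adjacent normal lung (95% confidence interval 3.43 to 14.8, log2 difference -2.83, SE 0.48, limma adjusted p = 0.00155). It was 9.06-fold lower than in non-transgenic lung (95% confidence interval 4.36 to 18.8, limma adjusted p = 0.000682). In the order of all differences against adjacent normal lung, it was the 365th most negative of 23538, within the lowest 1.55%. Within each number, tumor minus adjacent normal lung was -3.80, -3.08, -2.35 and -2.10 for 1 to 4, a range of 4.30-fold to 13.9-fold. All 4 tumor signals lay under the table median, so the size of the fold is less sure than its direction: with every signal raised to at least 2.81, the 25th percentile of the table, the log2 difference was -2.37 against adjacent and -2.72 against non-transgenic lung. By an unequal-variance test of 2 groups, the adjusted p over all probe sets was 0.0954 against adjacent and 0.0610 against non-transgenic lung, neither under 0.05. In bulk tissue, fewer cells of a type that makes a transcript and less of that transcript per cell cannot be told apart.

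Tumor 2, the tumor nearest to normal lung over all probe sets tested, was among the lowest for Wif1. Without tumor 2, the Wif1 log2 difference from adjacent normal lung was -2.53 (limma adjusted p = 0.00111).

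Dkk3 belongs to the Dickkopf family by sequence but is the member least tied to Lrp5 and Lrp6. It was lower in 3 of the 4 tumors and not in tumor 2. Its probe set 1448669_AT read 6.18, 6.10, 5.99 and 6.41 in non-transgenic lung and 6.54, 6.38, 6.10 and 6.18 in adjacent normal lung. In the tumors it read 4.84, 6.62, 3.91 and 4.59, so that tumors 1, 3 and 4 lay below every lung and tumor 2 lay above every lung. Its probe set 1417312_AT read 6.34 to 6.91 in non-transgenic lungs, 6.29 to 6.72 in the adjacent lungs and 5.40, 6.94, 4.72 and 5.19 in the tumors, with the same order. Over the 12 arrays the pair correlated with r = 0.99, as a description of probe sets that share a gene and every RNA sample.

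The tests of the Dkk3 pair fell on either side of the threshold. For 1448669_AT the tumor mean was 4.99 ± 1.15 (SD, n = 4), which was 2.48-fold lower than adjacent normal lung (95% confidence interval 1.30 to 4.73, limma adjusted p = 0.0389), and limma's adjusted p against non-transgenic lung was 0.0530. For 1417312_AT the log2 difference was -0.98 against adjacent normal lung (limma adjusted p = 0.0631) and -1.04 against non-transgenic lung (limma adjusted p = 0.0480). With the replicate number as a block, limma's adjusted p of 1417312_AT against adjacent normal lung was 0.0325 as a fixed term. As a random term it was 0.0543 and did not pass. Without tumor 2 both passed in both comparisons, with log2 differences from adjacent normal lung of -1.44 (1417312_AT) and -1.85 (1448669_AT) and from non-transgenic lung of -1.50 and -1.72. Over all probe sets tested, 22.1% and 22.5% fell in these comparisons without tumor 2, more than with it. Whichever other array was left out, neither passed in either comparison.

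The secreted frizzled-related proteins carry a cysteine-rich domain like that of the Frizzled receptors and bind Wnt ligands with it. None of their tested probe sets passed the threshold. Sfrp1 probe set 1448395_AT read 5.23 to 5.73 in non-transgenic lungs, 5.04 to 5.47 in the adjacent lungs and 3.31, 5.97, 3.48 and 5.41 in the tumors. Tumors 1 and 3 were low, tumor 2 was above every lung, and tumor 4 lay within the range of the lungs. The log2 difference from adjacent normal lung was -0.70 (SE 0.50, limma adjusted p = 0.306) and from non-transgenic lung -1.02 (limma adjusted p = 0.135). Without tumor 2 these were -1.18 (limma adjusted p = 0.0315) and -1.50 (limma adjusted p = 0.00924), where 22.1% and 22.5% of all probe sets tested fell. Only the 2 alternatives that left out tumor 2 passed, of 22 against adjacent and 21 against non-transgenic lung.

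The other probe sets of Sfrp1 did not share one pattern. 1416594_AT read 3.75 to 4.26 in the non-transgenic group, 3.11 to 4.22 next to the tumors and 3.23, 4.22, 4.17 and 3.81 in the tumors, so that the groups overlapped. Its log2 difference was 0.05 against adjacent normal lung (limma adjusted p = 0.912) and -0.26 against non-transgenic lung (limma adjusted p = 0.496). 1460187_AT, not tested, read 2.62 to 3.46, 2.81 to 3.26 and, in the tumors, 2.50, 3.88, 2.40 and 2.80. Tumors 1 and 3 were its lowest arrays and tumor 2 its highest, as for 1448395_AT, with which it correlated with r = 0.71 over the 12 arrays.

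Sfrp2, read by 1448201_AT, was not tested because it lay above 4.18 on too few arrays. It read 3.14, 3.17, 3.25 and 3.79 in non-transgenic lung, 3.59, 3.87, 3.78 and 4.57 in adjacent normal lung, and 2.60, 4.61, 2.84 and 2.31 in the tumors. Tumors 1, 3 and 4 lay below every lung and tumor 2 above every lung, the same split as for Dkk3.

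Frzb, also called Sfrp3, was read by 1416658_AT and 1448424_AT, both not tested. 1416658_AT read 2.40 to 2.81 in non-transgenic lungs, 2.42 to 3.26 in the adjacent lungs and 2.65, 3.27, 2.89 and 5.00 in the tumors. Tumor 4 was the only one of the 12 arrays above the table median. 1448424_AT read 2.36 to 2.56, 2.04 to 2.62 and, in the tumors, 2.56, 2.27, 2.42 and 3.14, again with tumor 4 the highest array but below the table median.

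**Figure D2:**
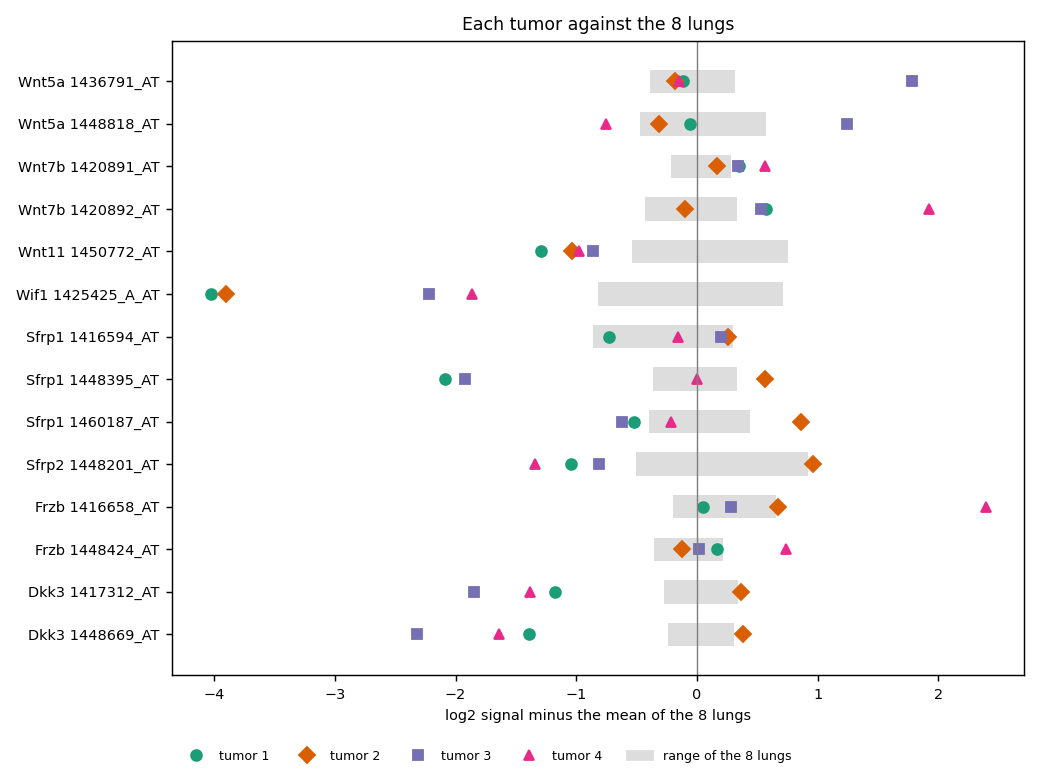
Log2 signal of each tumor minus the mean of the 8 lungs (x axis), in 1 row per probe set, with a symbol per tumor and the range of the 8 lungs as a grey bar. All 4 tumors lie left of the bar for Wif1 and Wnt11, whereas tumor 2 lies right of it for both Dkk3 probe sets and for Sfrp2.

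Among the ligands, Wnt11 was lower in all 4 tumors. Wnt11 mostly acts outside the β-catenin branch and guides cell movement and branching in the embryo. Its probe set 1450772_AT read 5.59, 5.45, 6.20 and 5.65 in non-transgenic lung, 5.12, 5.42, 6.42 and 5.44 in adjacent normal lung, and 4.37, 4.62, 4.79 and 4.68 in the tumors. The tumors lay close together, with a mean of 4.62 ± 0.18 (SD, n = 4) against 5.60 ± 0.56 in adjacent and 5.72 ± 0.33 in non-transgenic lung (SD, n = 4 each), and no tumor reached the lowest lung. The tumor level was 1.98-fold lower than adjacent normal lung (95% confidence interval 1.34 to 2.91, limma adjusted p = 0.0147) and 2.15-fold lower than non-transgenic lung (95% confidence interval 1.46 to 3.17, limma adjusted p = 0.00741). Within each number, tumor minus adjacent normal lung was -0.76, -0.80, -1.62 and -0.76. By the same unequal-variance test, the adjusted p was 0.149 against adjacent and 0.0457 against non-transgenic lung. Of all probe sets tested, 10.5% had a difference from adjacent normal lung at least as negative.

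Wnt7b is made by lung epithelium in the embryo, where it is needed for growth of the lung, and it acts mostly through β-catenin. Its probe set 1420892_AT read 4.70, 5.00, 5.46 and 5.19 in non-transgenic lung, 4.84, 5.19, 5.42 and 5.23 in adjacent normal lung, and 5.70, 5.03, 5.66 and 7.05 in the tumors. Tumors 1, 3 and 4 lay above every lung, tumor 4 by far, and tumor 2 lay within the lungs. The log2 difference from adjacent normal lung was 0.69 (95% confidence interval -0.06 to 1.44, limma adjusted p = 0.152) and from non-transgenic lung 0.77 (limma adjusted p = 0.106). Without tumor 2 these were 0.97 (adjusted p = 0.0240) and 1.05 (adjusted p = 0.0154). Without tumor 4 they were 0.29 and 0.38, the smallest of all alternatives, and did not pass. This probe set passed in 2 of 22 alternatives against adjacent normal lung and in 2 of 21 against non-transgenic lung. Its other probe set 1420891_AT was below the table median on all arrays, at 2.65 to 2.96, 2.81 to 3.15 and, in the tumors, 3.22, 3.03, 3.21 and 3.43, so that it too had tumors 1, 3 and 4 above every lung. In a fit without the filter on low signals, its log2 difference from non-transgenic lung was 0.47 (limma adjusted p = 0.0217) and from adjacent normal lung 0.24 (limma adjusted p = 0.235). Of the 6 members left out by the filter, only this 1 passed in that fit against non-transgenic lung, and 0 passed against adjacent normal lung. Over all 45037 probe sets, that fit called 8285 against non-transgenic lung and 7046 against adjacent normal lung.

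Wnt5a, the best known ligand of the branches without β-catenin, was high in tumor 3 alone. Its probe set 1448818_AT read 4.42 to 5.03 in non-transgenic lungs, 4.62 to 5.46 in the adjacent lungs and 4.83, 4.57, 6.13 and 4.13 in the tumors. 1436791_AT, not tested, read 3.05 to 3.70, 3.11 to 3.76 and, in the tumors, 3.33, 3.26, 5.23 and 3.29. On both probe sets tumor 3 was the highest of the 12 arrays, and no other tumor lay above the lungs. The tumor mean of 1448818_AT differed by a log2 difference of -0.12 from adjacent normal lung (95% confidence interval -0.89 to 0.65, limma adjusted p = 0.822) and of 0.18 from non-transgenic lung (limma adjusted p = 0.740).

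**Figure D3:**
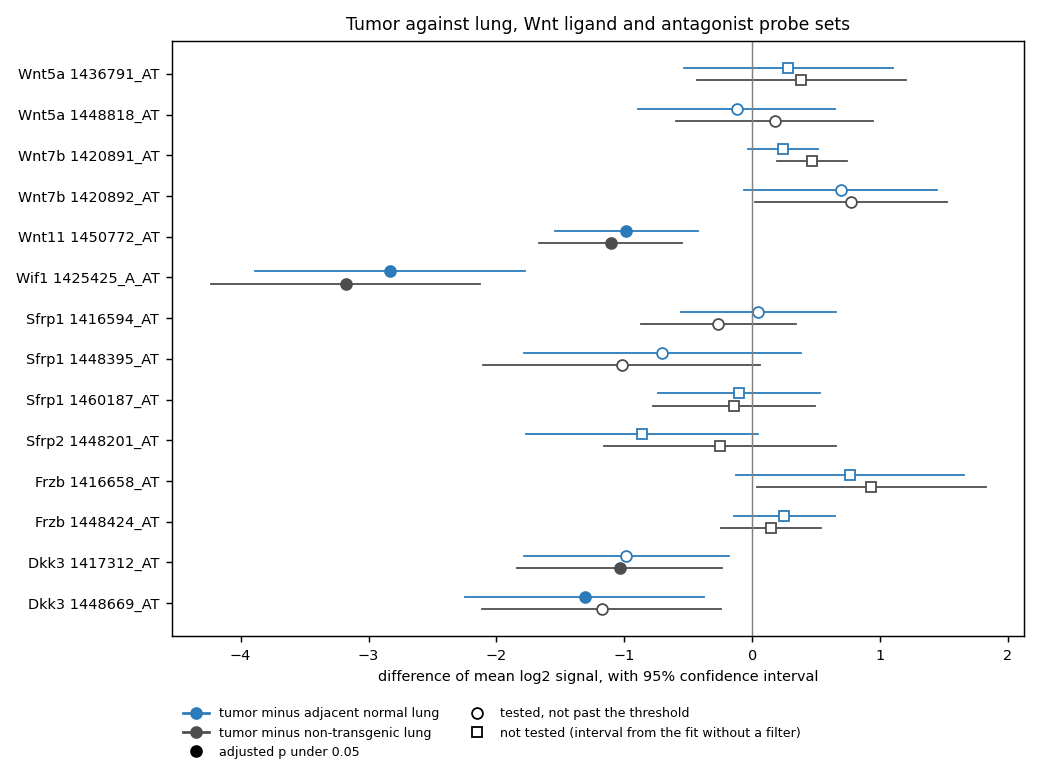
Difference of the mean log2 signal with its 95% confidence interval (x axis) in 1 row per probe set, for tumor minus adjacent normal lung (blue) and tumor minus non-transgenic lung (grey), with filled circles for a limma adjusted p under 0.05, open circles for probe sets tested that did not pass and squares for those not tested. Wif1 lies farthest from 0, at -2.83 and -3.18, and the filled circles are those of Wnt11, Wif1 and 1 Dkk3 probe set in each comparison.

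The 4 tumors were not alike in these genes. Counted against the range of the 8 lungs, tumor 1 had 7 of the 14 members below and 2 above, tumor 3 had 7 below and 4 above, and tumor 4 had 6 below and 4 above. Tumor 2 had 2 below, Wif1 and Wnt11, and 6 above. Over all 45037 probe sets other than controls, tumor 1 had 18.9% below and 24.1% above, tumor 2 had 18.3% and 16.0%, tumor 3 had 20.9% and 23.9%, and tumor 4 had 21.4% and 24.5%. Without tumor 2, 6 of the 8 members tested passed in each tumor comparison: Wif1, Wnt11, both Dkk3 probe sets and 1448395_AT (Sfrp1) lower, and 1420892_AT (Wnt7b) higher. Calls rose over the whole array as well: of 23433 probe sets tested without tumor 2, 22.1% fell and 22.9% rose against adjacent normal lung, and 22.5% fell and 24.3% rose against non-transgenic lung. The part of cell makeup or RNA quality of tumor 2 in this was not tested.

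**Figure D4:**
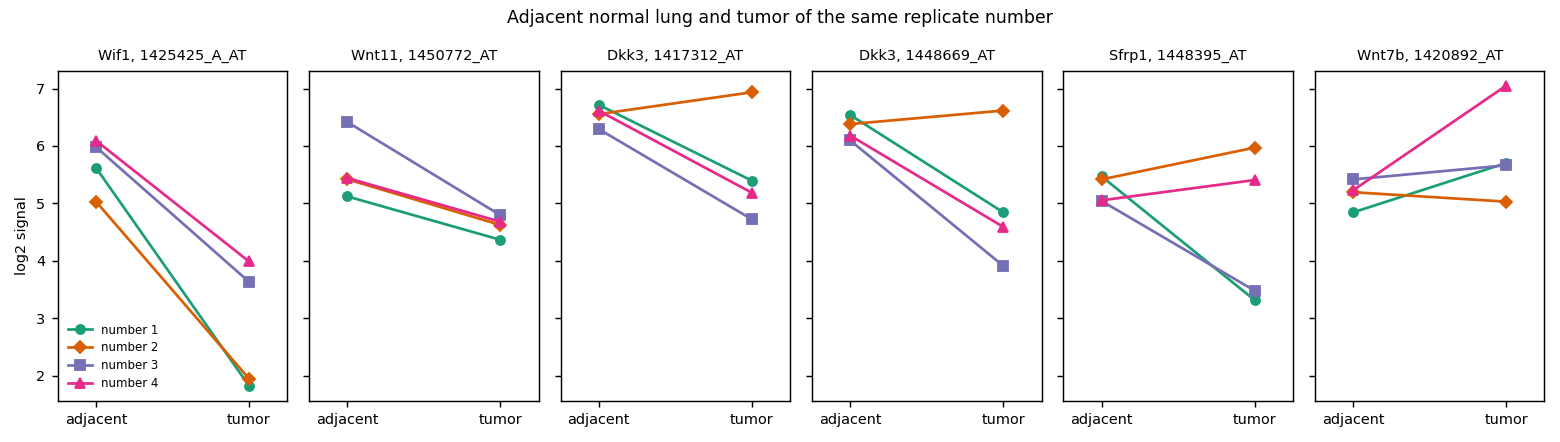
Log2 signal (y axis) in adjacent normal lung and tumor, with a line joining the arrays of the same replicate number, for 6 probe sets of Wif1, Wnt11, Dkk3, Sfrp1 and Wnt7b. All 4 lines fall for Wif1 and Wnt11, and for both Dkk3 probe sets the line of number 2 alone rises.

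Between adjacent normal lung of transgenic mice and non-transgenic lung, no member passed the test. Limma called 0 of the 8 members tested, beside 0% of all 23538 probe sets (835 had an unadjusted p under 0.05, of which 0 were members). The unequal-variance test also called 0 after adjustment, with 1305 at an unadjusted p under 0.05 and again 0 members. Differences of the tested members ran from -0.35 (Wif1) to 0.29 (1448818_AT, Wnt5a), and for Wif1 the 95% confidence interval was -1.40 to 0.71, so that a sizeable change in either direction would not have been detected. Sfrp2, not tested, had the widest difference of the 14 members (0.61 on the log2 scale), with 3 of 4 adjacent normal lungs at 3.59 to 3.87 against 3.14 to 3.25 in 3 of 4 non-transgenic lungs.

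Over all 14 members, tested or not, the median log2 difference of tumor from adjacent normal lung was -0.11 (ligands 0.24, antagonists -0.70) beside -0.01 over all 45037 probe sets. From non-transgenic lung it was -0.20 (ligands 0.38, antagonists -0.26) beside 0.05. In both comparisons 8 of 14 members were below 0, as were 50.9% and 41.7% of all probe sets. Probe sets of the same gene count separately in these medians. The ligand medians are the values of 1420891_AT (Wnt7b, 0.24) and 1436791_AT (Wnt5a, 0.38, high in tumor 3 alone), neither tested. The antagonist medians are those of Sfrp1 probe sets 1448395_AT and 1416594_AT, which did not pass the threshold. Wnt11, the only ligand called, was lower in the tumors.

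For each of the 8 genes, 1 probe set (that with the highest mean over the 12 arrays) was set against all tested probe sets other than those of the same gene, and the 3 with the highest correlation were looked up. The best match had r from 0.87 (Wnt5a) to 0.996 (Dkk3), and no member of another gene was among the 3 of any gene. That absence says little, since the 3 were picked from 23538 probe sets and the 6 members not tested could not appear. For Wif1 the best match was 1426708_AT (r = 0.98) and for Wnt11 1420395_A_AT (r = 0.97), both without a gene name here. Between members of different genes, Wnt11 and Wif1 correlated with r = 0.82, and 1420892_AT (Wnt7b) and 1448424_AT (Frzb) with r = 0.83. These correlations describe 12 arrays that fall into tumors and lungs, and tumor 4 was the highest array for the latter pair.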

How the data were processed

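Biotin-labelled cRNA from each sample went onto 1 Affymetrix mouse genome array. The deposited table gives log2 signals that the authors had background corrected and normalized between arrays. Robust Multichip Average in GeneSifter is named in the methods and GCRMA in the submitters' processing notes, and which of them made the values is unknown. Both methods compress or model low signals, so folds at low signal are uncertain. The members were given by their probe set numbers, and all 14 were described. Members and lists were chosen with earlier results of these data known. Gene lists fixed for receptors, targets and cell types were not analysed here.

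From the log2 values, limma 3.58.1 in R 4.3.3 (lmFit and eBayes) was fitted over 3 groups without a block, on probe sets above the table median in at least 4 arrays, with Benjamini-Hochberg adjusted p under 0.05 as the threshold. Groups came from the labels. Labels name neighbouring tissue codes for tumor and adjacent lung of 1 number. Same-number deviations from the group means correlated by -0.03, 0.10, 0.07 and 0.11 over probe sets, and the consensus correlation was 0.06. The highest correlation of any pair of arrays was 0.9935. The script was tested on simulated data. Alternatives were other filters, quantile normalization, median centring, a floor, a robust trend, only 8 arrays, replicate blocks, each array left out and the unequal-variance test that the methods state as their general test, with exceptions that include the arrays (analysis of variance). One alternative, without both tumor 2 and adjacent normal lung 3, was chosen after seeing the data. Upstream sequences came from a RefSeq table searched in Python 3.11.15.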

Additional observations from a re-analysis of the deposited data

Results flagged for a closer look

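Within groups of 4, the farthest array stood apart from the other 3 in 5 of the 42 combinations of member and group, where chance alone gives about 1 in 20. For 1436791_AT (Wnt5a), tumor 3 read 5.23 against 3.26 to 3.33 in the other tumors. For 1416594_AT (Sfrp1), non-transgenic lung 2 read 3.75 against 4.22 to 4.26. For 1448201_AT (Sfrp2), non-transgenic lung 4 read 3.79 against 3.14 to 3.25. For 1416658_AT (Frzb), non-transgenic lung 1 read 2.81 against 2.40 to 2.44, and adjacent normal lung 3 read 3.26 against 2.42 to 2.54. The values of the lungs among these all lay below the table median.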

How the results depend on the processing

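With each array left out in turn, limma called 2 to 6 members in tumor against adjacent normal lung and 2 to 6 in tumor against non-transgenic lung, and 0 to 0 in adjacent against non-transgenic lung. The 6 came only without tumor 2. Wif1 and Wnt11 passed in both comparisons whichever array was left out, while the Dkk3 calls were lost with any array other than tumor 2 left out. A filter at the 75th percentile (6.47) left Wif1 and Wnt11 untested and called 0 members against adjacent and 1 against non-transgenic lung. The unequal-variance test called 0 and 1 (Wnt11) after adjustment, and 6 and 6 were called without tumor 2 and adjacent normal lung 3. The replicate block called 4 members against adjacent normal lung, with 1417312_AT (Dkk3) added, and as a random term 3 and 3, and it changed no other call. No filter gave 2 and 3 (with 1420891_AT, Wnt7b, and without Dkk3), quantile normalization 3 and 3, median centring 2 and 2, the floor 3 and 3, the robust trend 3 and 2, and the 8 arrays of each comparison alone 2 and 2. Wif1 was called in 21 of 22 alternatives against adjacent normal lung, with adjusted p of 0.000564 to 0.0954. Median centring moved the median difference of all probe sets from -0.01 to 0.11 (tumor against adjacent) and from 0.05 to 0.12 (tumor against non-transgenic).

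Over all probe sets, calls in tumor against adjacent normal lung went from 6765 to 4069 (stricter filter), 4331 (8 arrays), 591 (unequal-variance test), 4450 to 10558 (each array left out) and 11065 (both arrays out), and against non-transgenic lung from 7652 to 4246, 6324, 1489, 5318 to 10976 and 12148.

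Signs turned only for differences whose adjusted p in the fit of all 12 arrays was 0.740 or higher, and the cause was not tested. With each array left out, the difference ran from -0.53 to 0.14 (tumor against adjacent) and from -0.23 to 0.44 (tumor against non-transgenic) for 1448818_AT (Wnt5a), and from -0.19 to 0.26 (tumor against adjacent) for 1416594_AT (Sfrp1), which was -0.31 with both arrays out. Adjacent minus non-transgenic lung ran from -0.047 to 0.21 for 1420892_AT (Wnt7b), from -0.39 to 0.038 for 1450772_AT (Wnt11) and from -0.14 to 0.052 for 1417312_AT (Dkk3), which was 0.031 with both arrays out.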
